A study of Homo sapiens with 4 samples.

Results

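The 6 genes described here, RAG1, RAG2, DNTT, VPREB1, IGLL1 and MME, act early in B cell development, and they were taken by name from the GENCODE v44 annotation of hg38, 6 of 19970 protein-coding genes on chromosomes 1 to 22 and X. The data are HiChIP, which combines chromatin immunoprecipitation with proximity ligation. It gives both the binding sites of a protein (peaks) and pairs of sites found close together among the fragments pulled down with it (loops). The cells were HG00731, a lymphoblastoid cell line (LCL), that is, B cells made to grow continuously with Epstein-Barr virus. The titles and cell line labels name this line, whereas the growth protocol gives another number. SMC1, a subunit of the cohesin ring, was pulled down after dual cross-linking with formaldehyde (FA) and ethylene glycol bis(succinimidyl succinate) (EGS), and CTCF after FA alone, each in 2 replicates from untreated cells of this 1 line. The authors pooled the replicates before calling peaks and loops, so 1 peak list and 1 loop list per target were analysed, with no error between replicates and no test. Antibody, cross-linking and read number, which was higher for SMC1, differ together between the targets and cannot be told apart.

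In pro-B and pre-B cells the variable regions of immunoglobulin genes are assembled by V(D)J recombination. The RAG1-RAG2 recombinase cuts next to recombination signals, the terminal transferase encoded by DNTT adds nucleotides at the joints, and general repair factors seal them. The proteins of VPREB1 and IGLL1 form the surrogate light chain of the pre-B cell receptor, and MME encodes the surface peptidase CD10, a marker of early and germinal centre B cells. Mature B cells normally no longer use the recombinase or the surrogate light chain.

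Peaks of a gene were those with a summit in its body or within 50 kb of its start. Loops of a gene were those with an anchor, a 5 kb bin, within 5 kb of any of its transcript starts. SMC1 peaks were found for 5 of the 6 genes and CTCF peaks for the same 5, MME being the gene without any. Over all coding genes 92.5% had an SMC1 peak and 92.0% a CTCF peak by the same rule. The 5 genes held 35 distinct SMC1 peaks and 25 distinct CTCF peaks, 1 and 2 of which lay in the windows of both RAG1 and RAG2. Each peak is given by its fold enrichment over local background at the summit and by the −log10 of its q-value.

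Most of these peaks lay away from the starts of the 6 genes. A summit within 1 kb of a transcript start was found only for RAG1, for SMC1 as for CTCF, whereas 62.6% of coding genes had one for SMC1 and 46.7% for CTCF. The nearest SMC1 summit was 0.183 kb from a start of RAG1, 4.49 kb for VPREB1, 5.92 kb for DNTT, 10.6 kb for IGLL1, 24.8 kb for RAG2 and 119.5 kb for MME. For CTCF the distances were 0.019 kb for RAG1, 7.87 kb for IGLL1, 9.03 kb for VPREB1, 11.4 kb for RAG2, 13.2 kb for DNTT and 151.0 kb for MME. The median over the 6 genes was 8.27 kb for SMC1 and 10.2 kb for CTCF, and over all coding genes it was 0.432 kb and 1.34 kb. At the canonical transcript start, which GENCODE marks for each gene, none of the 6 had a summit of either target within 1 kb, against 53.3% of coding genes for SMC1 and 35.5% for CTCF. This count was added after the RAG1 values were seen, because the peak of RAG1 lay at a start of another transcript.

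**Figure D1:**
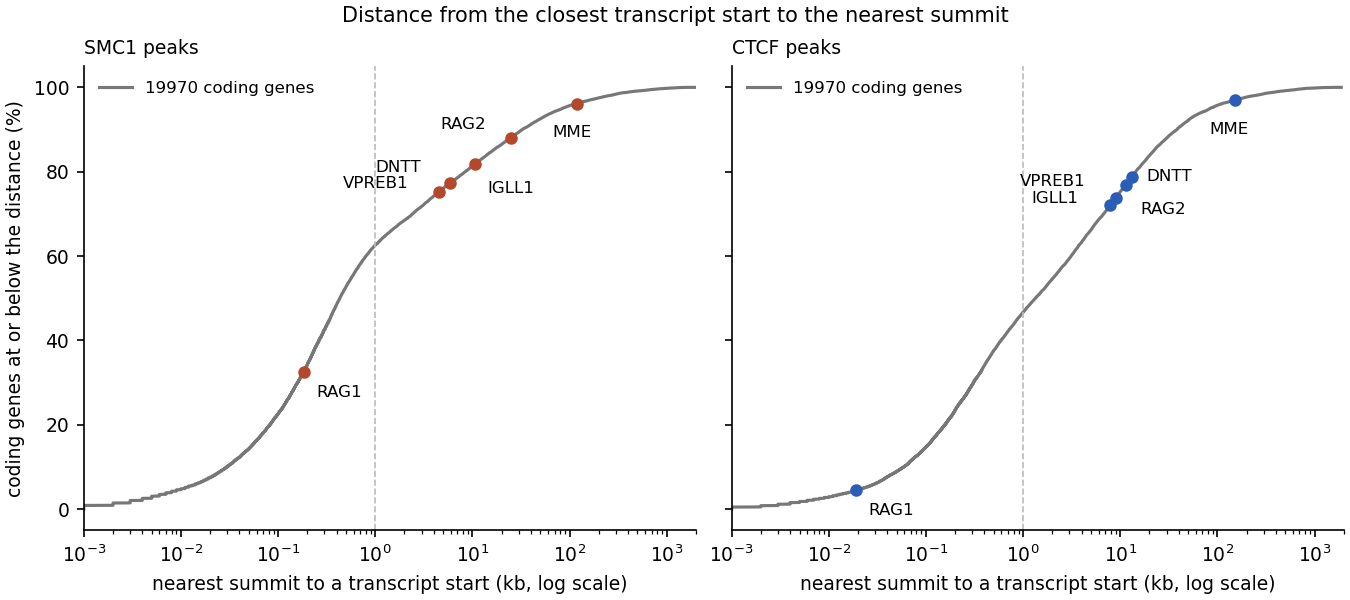
Cumulative share of 19970 coding genes (%) by the distance in kb (log axis) from the closest transcript start to the nearest SMC1 (left) or CTCF (right) summit, with the 6 genes as points. RAG1 is the single point left of the dashed line at 1 kb, and MME lies farthest right, at 119.5 kb and 151.0 kb.

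Other genes of the same process were counted in the same way. Of 18 repair and other V(D)J factors, most of them general factors of DNA repair, 17 had an SMC1 summit within 1 kb of a start and 15 a CTCF summit. Of 23 other early B and pre-BCR genes, among them transcription factors, cytokine receptors and signalling proteins, 21 had an SMC1 summit there and 13 a CTCF summit. At the canonical start the counts were 16 and 12 of the 18, and 16 and 8 of the 23. For CTCF the 8 of 23 early B genes were close to the 35.5% of all coding genes. FLT3 and IL7R, receptors of early progenitors, had SMC1 summits at 0.279 kb and 0.235 kb from a start, although neither had a loop. The genes of this list without an SMC1 summit within 1 kb were VPREB3, with the nearest at 1.69 kb, and SOX4, at 1.1 kb. Neither had a CTCF summit within 1 kb, the nearest being at 2.86 kb and 2.37 kb. As a check of the labelled cell type, 6 of 6 mature B markers had an SMC1 summit within 1 kb of a start, and of markers of other cells CD14, of monocytes, had one too, whereas ALB, of hepatocytes, and CD3E, of T cells, had none.

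**Figure D2:**
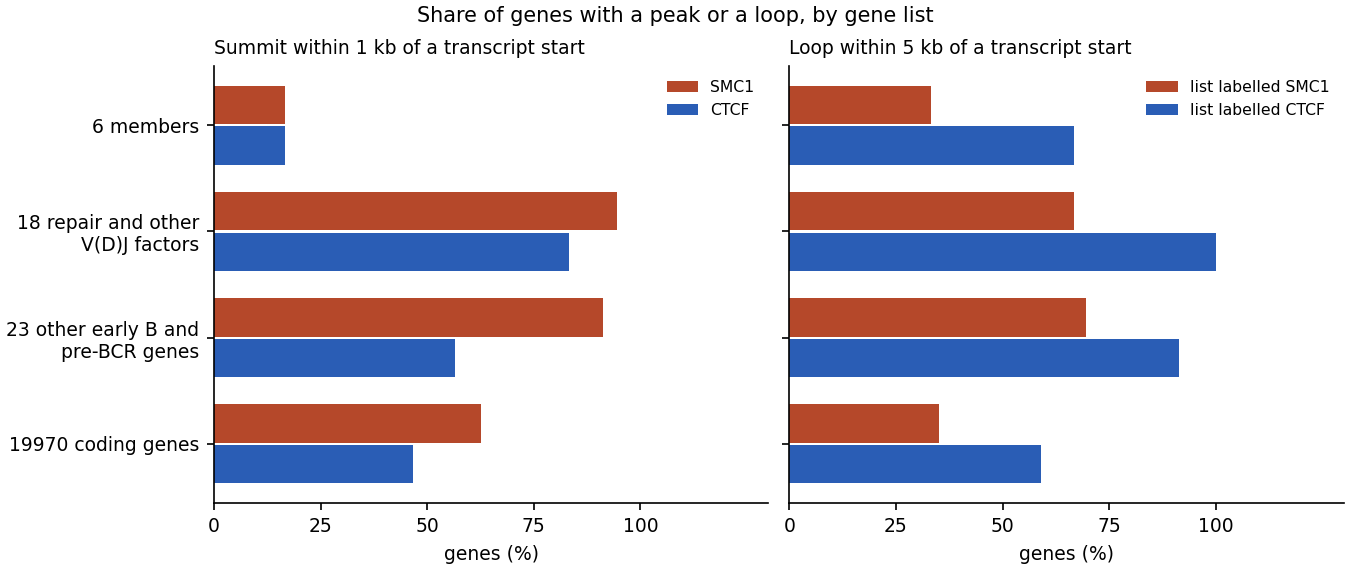
Share of genes (%) with a summit within 1 kb of a transcript start (left) and with a loop anchor within 5 kb of a transcript start (right), for the 6 genes, 18 repair and other V(D)J factors, 23 other early B and pre-BCR genes and all 19970 coding genes. Bars are red for SMC1 and blue for CTCF, by list label for the loops. The lowest bars for summits are those of the 6 genes, with 1 gene each.

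Most CTCF peaks around the 6 genes coincided with cohesin. The 25 CTCF peaks had a median −log10 q of 58.4 and a median fold enrichment of 7.18, against 19.6 and 5.01 over the whole list. The 35 SMC1 peaks had medians of 30.5 and 4.03, against 13.7 and 3.32. Of the CTCF peaks, 22 (88.0%, 95% Wilson interval from 70.0% to 95.8%) overlapped an SMC1 peak by at least 1 bp, and 75.9% of all CTCF peaks did. Of the SMC1 peaks, 20 (57.1%, from 40.9% to 72.0%) overlapped a CTCF peak, and 47.1% of all SMC1 peaks did. The intervals cover counting error only, and each contains the share of its whole list. The 15 SMC1 peaks without CTCF were found mainly around DNTT, with 7, and VPREB1, with 6. The CTCF list came from fewer reads, and what this adds to the number of such peaks was not tested.

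**Figure D3:**
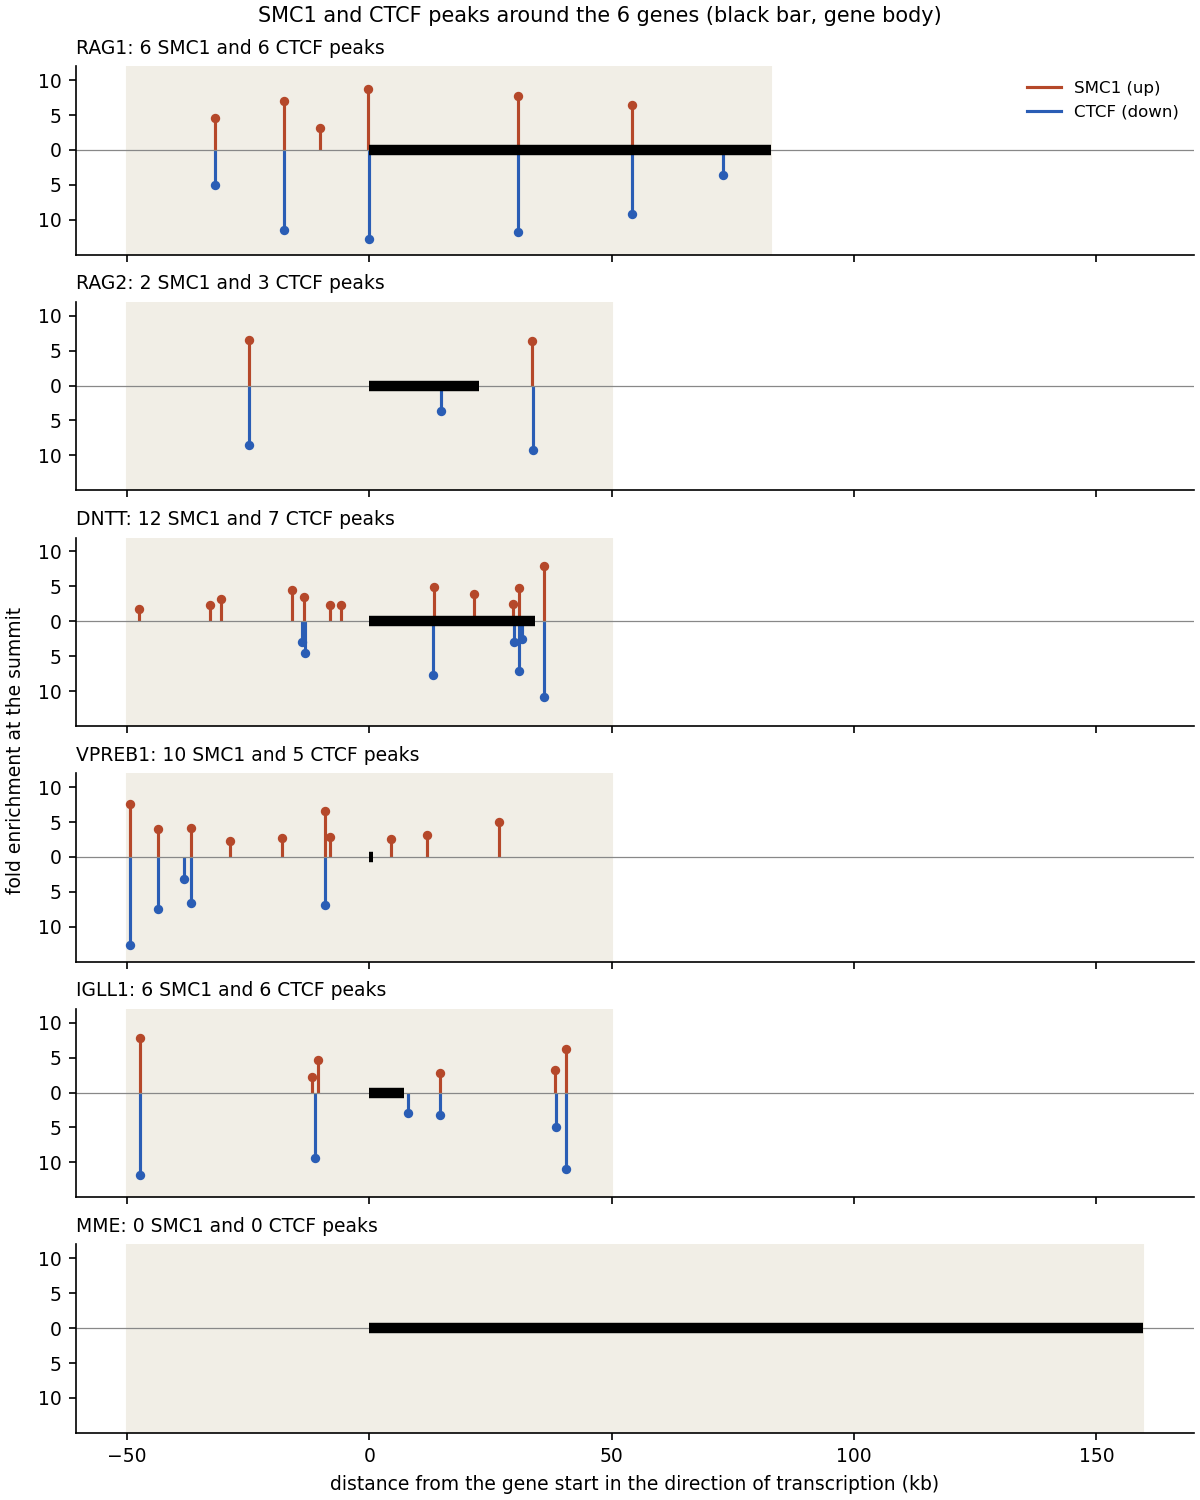
Fold enrichment at the summit of SMC1 peaks (red, upward) and CTCF peaks (blue, downward) against the distance in kb from the gene start, in the direction of transcription, with the gene body as a black bar and the searched window shaded. RAG1 has paired peaks at its start, the body of RAG2 holds only a weak CTCF peak, no summit lies in the body of VPREB1 or IGLL1, and the window of MME is empty.

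The CTCF sites themselves are shown first, before the peaks and loops of each gene. A 19 bp motif was learned from the 3000 CTCF summits of highest q, without a starting sequence, and read CCANNAGGGGGCGNNNNNN, with N where no base reached a share of 0.5. With a minimum score of 11 bits, 15.2% of all CTCF peaks had a match within 50 bp of the summit, and 3.46% of windows lying 1000 bp away did. At the 6 genes 8 of the 25 CTCF peaks had one. Within 200 bp of the summit, a window chosen after the first values were seen, the shares were 43.7% and 13.3%, and 15 of the 25 peaks had a match. The sequences below are of hg38, each 5′ to 3′ on the strand named, with the 19 matching bases in capitals. They are the sites at the RAG1 start, at both ends of a loop across RAG2, at the DNTT 3′ end, at the CTCF peak of highest q near VPREB1 and at both ends of the VPREB1 loop with the most read pairs.
RAG1 start (chr11:36510313-36510371, minus strand): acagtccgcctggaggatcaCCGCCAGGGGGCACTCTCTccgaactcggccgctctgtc
RAG1 intron (chr11:36564528-36564586, plus strand): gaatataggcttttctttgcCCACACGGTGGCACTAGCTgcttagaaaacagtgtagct
IFTAP intron, beyond RAG2 (chr11:36622927-36622985, minus strand): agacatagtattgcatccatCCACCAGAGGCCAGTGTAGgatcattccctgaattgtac
DNTT 3′ side (chr10:96340455-96340513, minus strand): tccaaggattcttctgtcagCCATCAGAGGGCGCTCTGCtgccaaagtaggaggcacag
VPREB1 peak of highest q (chr22:22195484-22195542, plus strand): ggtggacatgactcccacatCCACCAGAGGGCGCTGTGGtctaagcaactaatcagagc
VPREB1 loop, left end (chr22:22207967-22208025, plus strand): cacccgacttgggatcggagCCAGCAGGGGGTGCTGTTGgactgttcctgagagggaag
VPREB1 loop, right end (chr22:22235760-22235818, minus strand): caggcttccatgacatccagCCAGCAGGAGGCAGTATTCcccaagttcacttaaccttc

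Their scores were 16.5, 13.0, 16.1, 14.2, 20.6, 17.8 and 16.0 bits in that order. The site of 20.6 bits, at the VPREB1 peak of highest q, lay 84 bp from the summit and was matched only in the 200 bp window. Within 50 bp of that summit the best score was 6.81 bits, below the minimum. The strand gives the direction in which the motif points along the chromosome, and at the ends of cohesin loops CTCF motifs are known to point mostly toward each other. With matches within 50 bp of a summit, none of the 31 loops of the 6 genes had a match at both anchors, so every statement on direction rests on the 200 bp window. There, 4 of the 23 loops labelled CTCF and none of the 8 labelled SMC1 had a match at both anchors, 3 of them convergent and 1 with both motifs on the same strand. Over all loops with a match at both anchors in that window, 61.2% of 7689 loops labelled SMC1 and 62.7% of 15750 labelled CTCF had this convergent arrangement.

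RAG1 (chr11:36510372-36593156, plus strand, 5 transcript starts) had 6 SMC1 and 6 CTCF peaks. The CTCF peak of highest q had its summit 19 bp from the first start of RAG1, with a fold enrichment of 12.8 and a −log10 q of 236. The nearest SMC1 summit was 183 bp away, with a fold enrichment of 8.72 and a −log10 q of 98.9. The SMC1 peak of highest q, 115 as −log10, lay 17.5 kb upstream in TRAF6, with a fold enrichment of 6.96, beside a CTCF peak with 11.5 and 199. TRAF6, which encodes a signalling adaptor of receptors such as CD40, starts on the opposite strand 100 bp from this start, and the SMC1 summit fell in its UTR. The peaks thus belong to a start region that both genes share and cannot be assigned to either one.

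The canonical RAG1 transcript starts 57.6 kb downstream at 36568007. The summits closest to it were an intronic SMC1 summit 3396 bp upstream, with a fold enrichment of 6.42 and a −log10 q of 80.5, and a CTCF summit 3449 bp upstream, with 9.21 and 80.7. A second intronic pair lay 25583 bp and 25677 bp from the nearest start, with fold enrichments of 7.69 for SMC1 and 11.7 for CTCF. Thus 2 of the paired peaks lay inside RAG1 and 1 at the start it shares with TRAF6.

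RAG2 (chr11:36575574-36598279, minus strand), whose annotated body overlaps that of RAG1 on the opposite strand, had the fewest peaks of the 5 genes that had any. Its 2 SMC1 peaks were the one in the RAG1 intron, 33.7 kb downstream of the RAG2 start, and one in IFTAP 24.8 kb upstream, with a fold enrichment of 6.57 and a −log10 q of 35.8. In the gene body only a CTCF peak was called, with a fold enrichment of 3.64 and a −log10 q of 6.23, below the list median and without SMC1. IFTAP, the neighbour on the opposite strand, has a start 18 bp from one RAG2 start. No loop anchor of either list lay within 5 kb of a RAG2 start.

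Before the loops are described, the labels of the loop lists need a remark. There were 28012 loops labelled SMC1 and 80487 labelled CTCF. The study's supplement gives the same 2 numbers the other way round, 80487 loops for SMC1 and 28012 for CTCF. Every loop of the list labelled CTCF had an SMC1 peak at an anchor, while 3745 of them had no CTCF peak, and every loop of the list labelled SMC1 had a CTCF peak, while 11 had no SMC1 peak. By loop number and by peaks at the anchors, the labels thus appear exchanged between the targets. Loops are named by the label of their list only, which is not to be read as the target pulled down. By label, 2 of the 6 genes had a loop labelled SMC1 (RAG1 and DNTT), where 35.1% of coding genes had one. For the list labelled CTCF it was 4 of 6 (RAG1, DNTT, VPREB1 and IGLL1), where 59.0% of coding genes had one. With the transcript start inside the anchor, 2 of 6 genes had a loop in each list. The share of all coding genes under that rule was not counted, so this number has no comparison. Of 18 repair and other V(D)J factors 12 had a loop labelled SMC1 and 18 a loop labelled CTCF, and of the 23 other early B genes 16 and 21. NBN and NHEJ1, a sensor and a joining factor of DNA breaks, had the most loops of the repair list, with 26 and 22 labelled CTCF, and LIG4 and PRKDC had 1 each. IKZF3, a lymphoid zinc finger factor, had the most of the early B list, with 35.

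**Figure D4:**
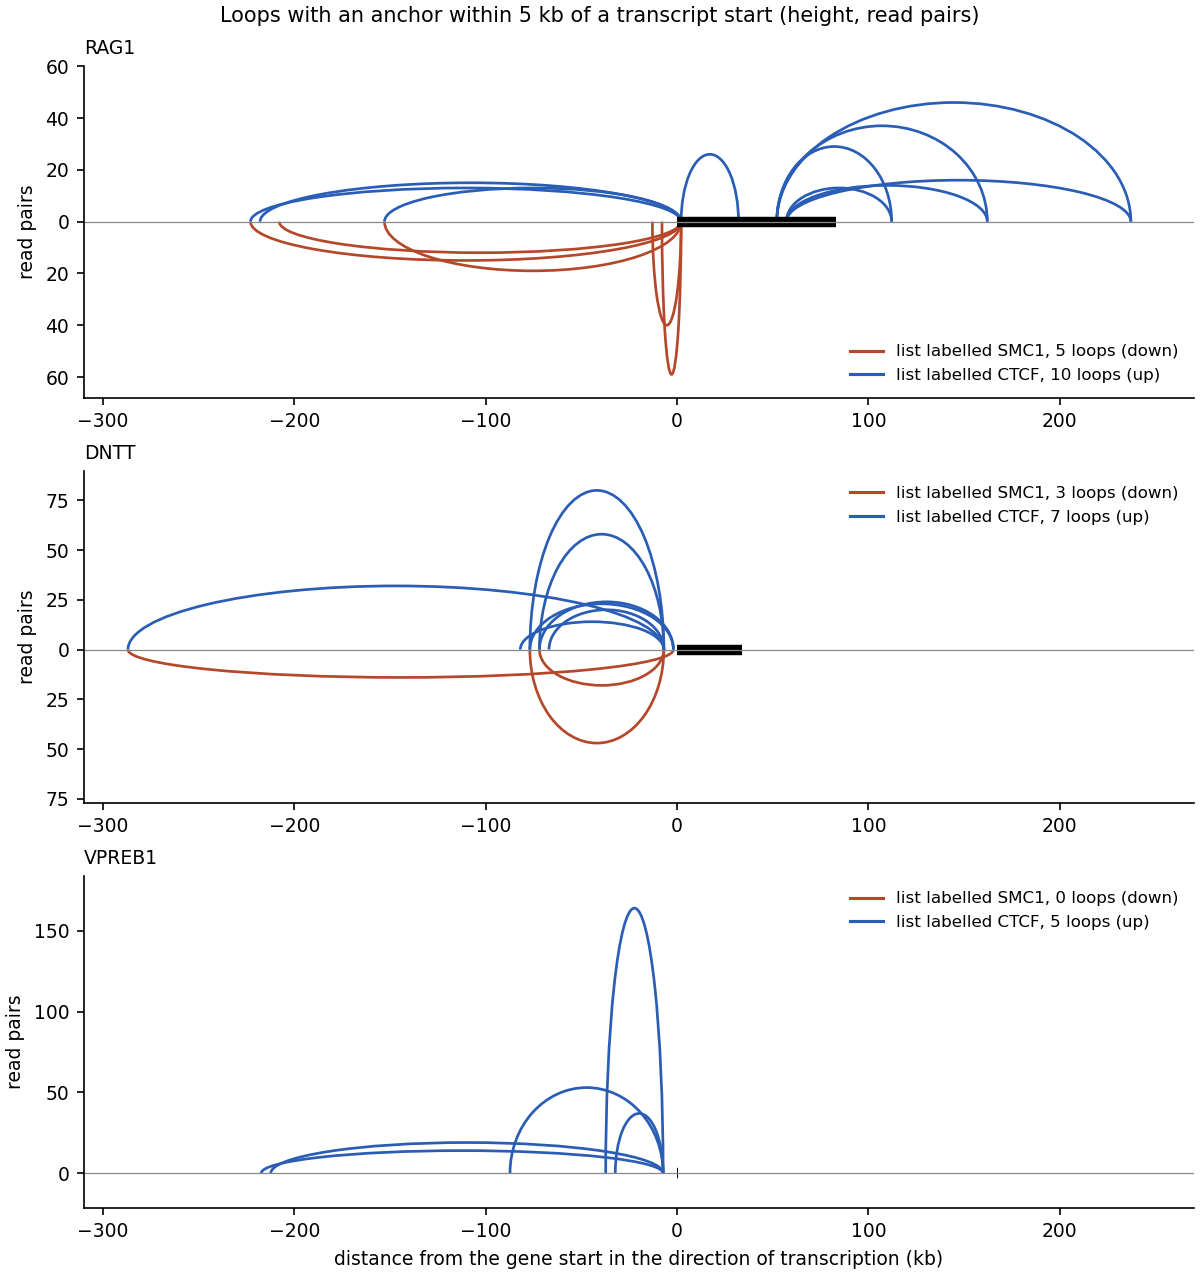
Loops with an anchor within 5 kb of a transcript start of RAG1, DNTT or VPREB1, drawn as arcs between the anchor centres, in kb from the gene start, with the read pairs as height. Blue arcs above are of the list labelled CTCF (10, 7 and 5 loops) and red arcs below of the list labelled SMC1 (5, 3 and 0). RAG1 arcs leave in both directions, and those of DNTT and VPREB1 all run upstream.

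RAG1 had the most loops of the 6 genes, 5 labelled SMC1 and 10 labelled CTCF, when the start it shares with TRAF6 was counted. From the anchor that holds this shared start, all 5 loops labelled SMC1 and 4 of those labelled CTCF began, and they cannot be assigned to either gene. Without that anchor RAG1 had fewer loops in each list than DNTT, which had 3 labelled SMC1 and 7 labelled CTCF. Of the loops labelled SMC1, the one with the most read pairs, 59 against 23.5 expected, reached 10 kb into TRAF6. The next, of 40 against 19.5, ended 15 kb away in the same gene. Farther upstream the shared anchor met PRR5L, whose product belongs to the mTORC2 complex, over 155 kb, with 19 read pairs (labelled SMC1) and 13 (labelled CTCF). COMMD9 was met over 225 kb by 15 and 13 read pairs in the same bins. A loop labelled CTCF of 26 read pairs against 8.40 expected ran 30 kb downstream to the intronic peak of RAG1, and the motifs at its ends lay on the same strand.

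The other 6 loops labelled CTCF began at the 2 neighbouring anchors next to the canonical RAG1 start, which lay away from TRAF6. They ran downstream to the same 3 bins. The anchor with the intronic peak met the bin 185 kb away with 46 read pairs against 7.90 expected, the bin 110 kb away at IFTAP with 37 against 5.22, and the bin 60 kb away with 29 against 7.10. The anchor that holds the canonical start itself met the same bins with 16, 14 and 13 read pairs. All 6 loops pass over the whole of RAG2, so the gene without loops of its own lay inside the loops of its partner. For the 60 kb loop, the RAG1 intron site points right and the IFTAP intron site, which lies 63 bp from its summit and was matched only in the 200 bp window, points left. In the list labelled SMC1 no loop enclosed RAG2.

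DNTT (chr10:96304409-96338564, plus strand) had 12 SMC1 and 7 CTCF peaks, more SMC1 peaks than 81.4% of coding genes. None was at the start, and the nearest SMC1 summit, 5921 bp upstream in a lncRNA intron, was weak, with a fold enrichment of 2.27 and a −log10 q of 4.79. The peaks of highest fold of both targets lay together just past the 3′ end, 36.1 kb from the start, with a fold enrichment of 7.93 for SMC1 and 10.9 for CTCF and −log10 q of 70.6 and 106. Inside the gene, paired peaks at 13.3 kb and 30.9 kb had SMC1 folds of 4.91 and 4.77. On the upstream side 6 of the 7 SMC1 peaks had no CTCF peak, among them the SMC1 peak of highest q, 16.0 kb upstream, with a fold enrichment of 4.49 and a −log10 q of 80.8. The summits 47.4 kb and 32.9 kb upstream, also without CTCF, lay in an intron and in the UTR of the neighbouring gene BLNK. They count by the window rule but cannot be assigned to DNTT.

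The upstream region of DNTT was joined to BLNK, which encodes the adaptor that carries the pre-B cell receptor signal and is itself an early B gene. The bin 4409 bp upstream of the DNTT start met a bin in the body of BLNK 70 kb away with 47 read pairs against 9.94 expected (labelled SMC1) and with 80 against 12.7 (labelled CTCF). The bin beside it in BLNK was met by 18 and 58 read pairs. Neither of these bins held a BLNK start, the closest of which lay 14150 bp away. The DNTT anchor held 2 SMC1 peaks, both in a lncRNA intron, with −log10 q of 6.4 and 4.79, and no CTCF peak. The BLNK bin 70 kb away held a peak of each target, with −log10 q of 299.7 for SMC1 and 277 for CTCF. A farther loop reached CC2D2B over 285 kb with 14 read pairs (labelled SMC1) and over 280 kb with 32 (labelled CTCF), the largest ratio of observed to expected pairs among the loops of the 6 genes in each list, 6.32 and 8.12.

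A loop of 325 kb from the same CC2D2B bin to the peak past the DNTT 3′ end enclosed the gene in both lists. As labelled SMC1 it held 15 read pairs against 2.67 expected, and as labelled CTCF 45 against 3.14, a ratio of 14.3. Its right end is the site printed above, which points left, and the best match at its left end, in the 200 bp window, points right.

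VPREB1 (chr22:22244780-22245515, plus strand), a gene of 0.736 kb, lies among the variable segments of the immunoglobulin lambda light chain locus (IGLV). The peaks in its window included those of highest q of the 6 genes. An SMC1 peak 49.3 kb upstream had a fold enrichment of 7.65 and a −log10 q of 468, and the CTCF peak at the same place had 12.7 and 626. This pair lay just inside the 50 kb limit. The 5 CTCF peaks were all upstream and all overlapped an SMC1 peak, and the closest was 9.03 kb away. The 3 SMC1 peaks on the downstream side had no CTCF peak and fold enrichments of 2.51, 3.14 and 5.04, and the one nearest to the start was 4.49 kb away.

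All 5 loops of VPREB1 were labelled CTCF and began at 1 bin whose edge lay 4780 bp upstream of the start, so that none remained when the start had to fall inside the anchor. Its strongest loop by read pairs, and that of all 6 genes, held 164 against 71.2 expected and ran 30 kb upstream to the bin at IGLV11-55 and IGLV10-54. The next held 53 against 21.5 expected and met the bin at IGLV4-60, 80 kb away. The third held 37 against 17.5 and ran 25 kb. The ratios of observed to expected pairs were 2.30, 2.46 and 2.12, the lowest among the loops labelled CTCF of the 6 genes. At the first loop the left site points right and the right site, matched only in the 200 bp window, points left. From the same IGLV11-55 bin, 5 further loops labelled CTCF and 1 labelled SMC1 passed over VPREB1 to IGLV segments on its other side. That between the IGLV11-55 bin and the IGLV1-47 bin held 51 read pairs as labelled SMC1 and 74 as labelled CTCF, over 150 kb, with sites on the same strand.

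IGLL1 (chr22:23573125-23580302, minus strand), the partner of VPREB1, had 6 SMC1 and 6 CTCF peaks, of which 5 and 5 coincided. Its window was framed by paired peaks near its limits. Upstream, in an intron of DRICH1 47.4 kb away, SMC1 had a fold enrichment of 7.82 and a −log10 q of 117, and CTCF 11.8 and 156. Downstream, in the lncRNA PCAT14 about 40.5 kb away, SMC1 had 6.27 and 126, and CTCF 11.0 and 238, the highest −log10 q of each target for this gene. Between them the nearest SMC1 summit was 10.6 kb upstream, with a fold enrichment of 4.73, and the nearest CTCF summit, 7.87 kb away, had only 2.96 and a −log10 q of 3.85. IGLL1 had 1 loop, labelled CTCF, of 14 read pairs against 4.08 expected, which joined the bin next to its start with PCAT14 over 45 kb and so passed over the gene. A second loop of 20 against 6.77 expected passed over it to the bin beside. The bin next to the IGLL1 start held no CTCF peak, so no motif could be sought there. At the other ends of these loops no match was found within 200 bp of a CTCF summit.

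MME (chr3:155024124-155183704, plus strand), with 17 transcript starts over a body of 159.6 kb, had no SMC1 peak, no CTCF peak and no loop. Its window of 209.6 kb was the longest of the 6. The nearest SMC1 summits were 119.5 kb upstream of the gene, with a fold enrichment of 2.95 and a −log10 q of 5.67, and 139.6 kb downstream, with 5.77 and 48.1. The nearest CTCF summits were 340 kb upstream and 139.7 kb downstream, the latter with a fold enrichment of 13.6 and a −log10 q of 155. The gap free of CTCF peaks measured 639 kb and that free of SMC1 peaks 419 kb. Of all coding genes 1246 (6.24%) had no peak of either target in their window, and of the 2035 with a window at least as long as that of MME 51 (2.51%) had none. An absent peak says only that none passed the q threshold of 0.01 in the pooled reads.

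The promoters of the 6 genes were also read for short words bound by B cell factors, in the 300 bases around each RefSeq start (250 before and 50 after, GRCh38.p14, 9 promoters, 4 of them of MME, all 6 genes matched). For RAG1 the only promoter read was that of the start region shared with TRAF6, and the canonical start 57.6 kb downstream was not read. Matches on either strand were counted. The palindromic word of EBF, a factor that commits cells to the B lineage, was found in none of the 9, and in 1.21% of 35116 promoters. The E-box CANNTG was found in 8 of the 9, all but 1 promoter of MME, and in 68.7% of all promoters, with 6 matches at IGLL1 and 3 each at DNTT and VPREB1. Some of the MME promoters overlap, so the same E-box counts in more than 1 of them. The Ikaros word TGGGAA stood in 2 promoters of MME and in 24.0% of all, and the RUNX word TGTGGT in IGLL1 alone, with 2 matches, and in 13.1% of all.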

How the data were processed

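SMC1 HiChIP after FA-EGS cross-linking and CTCF HiChIP after FA cross-linking were made in 2 replicates each. Per the methods of the study, the authors used BWA-MEM and hg38 for alignment, pooled the replicates and called peaks with MACS3 (version 3.0.1 in the submitters' processing notes) at a q threshold of 0.01 without an input sample. The deposited peak lists give the fold enrichment at the summit, a ratio to background estimated nearby, and the q-value as −log10. The authors called loops with MAPS in the nf-HiChIP pipeline from 5 kb bins, and the deposited loop lists give the observed read pair count of each bin pair and an expected count, which is a score of the MAPS model. The lists hold no library totals. The study's supplement gives read numbers for the pooled samples, higher for SMC1 than for CTCF, but not for each replicate.

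Positions were converted to 1-based coordinates and joined to GENCODE v44 with Python 3 scripts, which were tested on simulated data. Overlap meant at least 1 bp. The motif was learned by expectation maximization from the most enriched word. All 6 genes were named, with their peaks of highest q, the peaks within 1 kb of a transcript start and the 3 loops with most read pairs per list, and up to 4 genes of each comparison list by their numbers of loops. FLT3, IL7R, VPREB3 and SOX4 were described after their values were seen. The genes and lists were chosen with earlier results of these data known. With pooled lists no test was made. The peak score columns, the MAPS p-values and the cluster columns were not used.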

Additional observations from a re-analysis of the deposited data

How the results depend on the processing

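A count was taken as unchanged when it stayed within 1.5 times its value, which held for 20 of 40 alternatives over 14 results. None of the planned settings for q (−log10 q of at least 5 or 10) or for the overlap of peaks moved a count past that limit. With a window of 25 kb the 6 genes had 22 SMC1 and 16 CTCF peaks, and with 100 kb 59 and 45. With loops of at least the median read pairs of their list, 3 loops labelled SMC1 and 12 labelled CTCF were left, and 1 and 9 loops that enclose one of the genes. With a transcript start inside the anchor, the loops labelled CTCF fell to 9 and the genes that have one to 2. When the lists of loops were swapped between SMC1 and CTCF, the loops were 23 for SMC1 and 8 for CTCF, and the genes with a loop 4 and 2. Settings chosen after the data were seen were the canonical start, starts over 1 kb from a coding start of another gene, and the wider motif window. With either of the first settings, the count of genes with a summit within 1 kb of a start was 0 for SMC1 and 0 for CTCF. A stricter motif minimum of 14 bits left 4 matches at CTCF summits, and a window of 200 bp gave 15. Weak sites below the q threshold and differences between replicates cannot be seen in the pooled lists.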
